A study of Homo sapiens with 23 samples.

Results

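BCL6, LPP, TPRG1, TP63 and P3H2 are 5 neighbouring protein-coding genes on chromosome 3, and chromatin loops at them were compared between 2 libraries of T47D cells. T47D is an established human breast cancer line that carries the progesterone receptor. The loops were measured by HiChIP, which ligates DNA ends that touch in the nucleus and then pulls down the ligated fragments by antibody. The antibody was against the progesterone receptor. The library labelled T0 names no agent, and is taken here as time 0 before hormone. The title of the library labelled T30 reads PR5020, which is taken here to mean the receptor and R5020, a synthetic progestin. The labels give neither the unit of T30 nor the dose in these libraries. Per the labels' protocols, T47D cells were moved to medium free of phenol red with charcoal-stripped serum, and then to medium without serum, before any hormone. Each condition had 1 library, so no difference below has a replicate check and none was tested.

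A loop belongs to a gene here when either of its bins, each 5 kb long, overlaps the gene body widened by 10 kb on both sides. The genes were chosen on their loop counts in these libraries, so the counts below describe them and support nothing further. By this rule 53 of 7075 listed loops in T0 and 27 of 9591 in T30 were at the 5 genes. Loops at more than 1 of the genes were counted once in these totals. A count at each gene includes all its loops.

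The progesterone receptor is a nuclear receptor that binds DNA when it carries its hormone and acts largely from enhancers that can lie far from the gene they serve. BCL6 encodes a zinc finger repressor best known from germinal centre B cells and also made in breast epithelium, LPP a LIM domain protein of cell adhesions, and TPRG1 a little-studied protein named for its regulation by p63. TP63 encodes p63, a transcription factor that marks basal epithelial cells, and P3H2 encodes an enzyme that hydroxylates prolines of collagen. T47D cells are of luminal type. None of these values measures expression of the genes.

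In GRCh38 coordinates BCL6 lies at chr3:187721377-187745468 on the minus strand, and LPP at chr3:188153021-188890671 on the plus strand. TPRG1 lies at chr3:188997227-189325304, TP63 at chr3:189596746-189897276 on the plus strand, and P3H2 at chr3:189956728-190122278 on the minus strand. Loop bins could be set beside start sites for the 4 genes with a promoter entry in RefSeq (GRCh38.p14), which TPRG1 lacks in the table used. The 250 bases before 3 start sites are shown because these starts differed in their loops. The first BCL6 start lay in a bin with 5 partner bins in each library, the LPP start in a bin with 0 partners in T0 and 1 in T30, and the P3H2 start in a bin with no listed loop in either. The sequences run 5′ to 3′ on the gene's strand, from chr3:187745469-187745718 (minus), chr3:188152771-188153020 (plus) and chr3:190122279-190122528 (minus), and capitals mark a motif match.
BCL6: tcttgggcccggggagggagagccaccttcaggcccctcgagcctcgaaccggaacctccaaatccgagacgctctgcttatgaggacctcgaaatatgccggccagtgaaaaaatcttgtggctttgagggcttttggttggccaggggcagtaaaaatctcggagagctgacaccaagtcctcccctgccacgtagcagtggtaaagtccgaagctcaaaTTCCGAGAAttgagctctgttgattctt
LPP: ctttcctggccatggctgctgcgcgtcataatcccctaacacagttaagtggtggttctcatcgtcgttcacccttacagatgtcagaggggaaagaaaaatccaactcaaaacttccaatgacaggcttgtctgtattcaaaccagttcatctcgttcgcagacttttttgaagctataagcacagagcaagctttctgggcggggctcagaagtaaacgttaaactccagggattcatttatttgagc
P3H2: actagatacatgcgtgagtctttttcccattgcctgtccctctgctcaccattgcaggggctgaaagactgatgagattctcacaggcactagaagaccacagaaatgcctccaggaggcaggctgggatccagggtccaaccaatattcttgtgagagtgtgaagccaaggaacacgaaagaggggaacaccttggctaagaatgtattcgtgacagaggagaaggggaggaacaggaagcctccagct

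Motifs were searched on both strands in these windows: ACANNNTGT, a core of the progesterone receptor element, TTCNNNGAA, a core bound by STAT factors and similar to that of BCL6, TGTTTAC of forkhead factors and AGATAA of GATA factors. The BCL6 window held 1 match, to TTCNNNGAA, 28 bases before the start, and no match to the other 3. The LPP and P3H2 windows shown held none of the 4. Among 35116 RefSeq promoter windows of 250 bases, 4.61% held ACANNNTGT, 6.57% TTCNNNGAA, 2.98% TGTTTAC and 9.17% AGATAA. Of the other 9 windows of the genes, that before the LPP start at 188212712 held 1 match to TGTTTAC, and that before the LPP start at 188212896 held 2 matches to ACANNNTGT, 71 and 19 bases before it, and its bin had no listed loop in either library. A match describes letters only and is not a bound site.

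TPRG1, TP63 and P3H2 had fewer listed loops in T30 than in T0 by a factor of 2 or more, BCL6 had fewer and LPP about as many. All listed loops, in contrast, were 1.36 times as many in T30 as in T0. The lists differ in reach: only T0 holds loops under 20 kb, and at 20 kb or more it held 6501 loops against 9591 in T30. No loop at the 5 genes was that short. Loops of 500 kb or more made up 56.6% of T0 loops at the genes, against 12.7% of all T0 loops. Over the whole lists such long loops numbered 898 in T0 and 305 in T30. The 53 T0 loops (exact 95% Poisson interval 39.7 to 69.3) held 649 contacts, and the 27 T30 loops (17.8 to 39.3) held 319, where a contact is a read pair joining the 2 bins. The T30 to T0 ratio was 0.509 for loops and 0.492 for contacts. On the rest of chromosome 3 the loops numbered 816 in T0 and 1150 in T30, a ratio of 1.41. The 5 genes thus held 6.1% of the chromosome's loops in T0 and 2.29% in T30. These intervals cover counting error only and treat loops as independent, although many share an end.

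All 5 genes had a listed loop in T0 and 4 of them in T30, where 27.3% and 32.2% of 19970 protein-coding genes did. TPRG1 had 22 loops with 265 contacts in T0 and 4 loops with 40 contacts in T30. BCL6 had 21 loops with 244 contacts in T0 and 13 with 172 in T30. P3H2 had 19 loops with 249 contacts in T0, and 7 with 76 in T30. TP63 had 6 loops with 62 contacts in T0 and no listed loop in T30, for which the exact interval reaches 3.69 loops. LPP, the longest of the genes at 737651 bp, had 7 loops with 73 contacts in T0 and 8 with 80 in T30. Of the 637 protein-coding genes with 5 or more T0 loops, 41.6% also had T30 loops lower by a factor of 2 or more, so 3 of 5 is not set apart from that share.

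**Figure D1:**
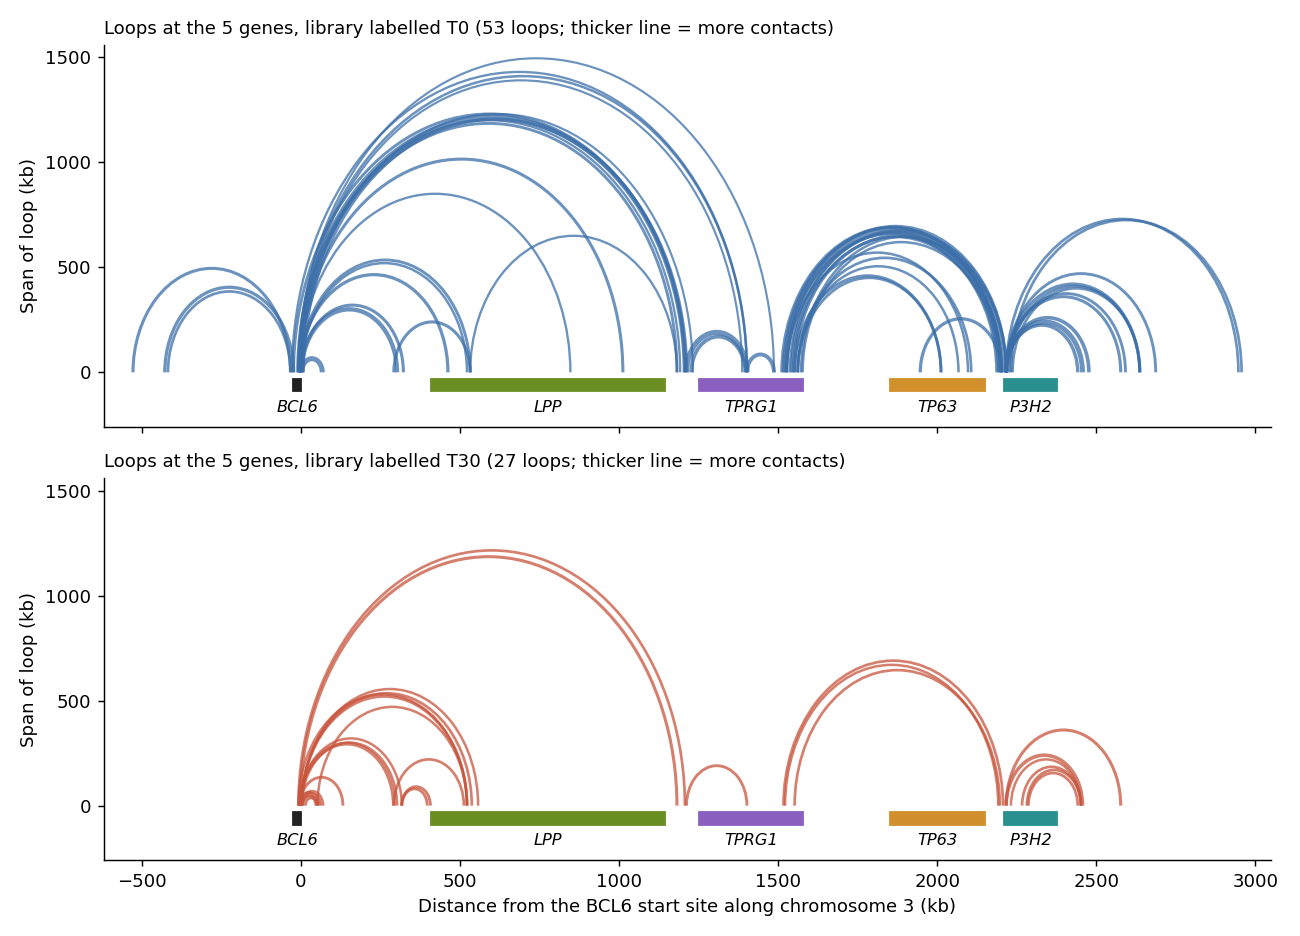
Loops at the 5 genes in the T0 library (top, 53 loops) and the T30 library (bottom, 27 loops); the x axis is distance in kb from the BCL6 start site, each arc joins the middle of 2 bins, its height is its span in kb and its width grows with its contacts. In T0 arcs link all 5 genes in a chain, which the loops of 7 to 9 contacts from BCL6 to TPRG1 complete, and in T30 no arc ends in TP63 and the arcs from BCL6 to TPRG1 are not listed.

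The genes were next taken in pairs, counting loops with an end at each. In T0, 5 of the 10 possible pairs were joined, by 22 loops with 244 contacts, and the joined pairs linked all 5 genes into a single chain. The chain rested on loops of few contacts: with loops of at least 10 contacts alone, BCL6 and TPRG1 were not joined, 4 pairs were left and the largest linked set held 3 genes. In T30, 2 pairs were joined, by 5 loops with 49 contacts, and the largest linked set held 2 genes. Among 555440 pairs of protein-coding genes no farther apart than the outermost of the 5, 0.651% were joined in T0 and 0.758% in T30. The choice of the genes used these joins, so nothing is read from that contrast.

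TPRG1 was the middle of the T0 chain. Between TPRG1 and P3H2 there were 7 loops with 98 contacts in T0 and 1 loop with 10 contacts in T30. With the genes not widened there were 3 and 0, since the others, the strongest among them, ended just below the P3H2 body. Between TPRG1 and TP63 there were 5 loops with 49 contacts in T0, none above 11 contacts, and no listed loop in T30. Between BCL6 and TPRG1 there were 4 loops with 31 contacts in T0, of 7 to 9 contacts each and 1390 to 1495 kb long, and none in T30. The near end of 1 of these 4, with 8 contacts, lay over RTP2, a neighbour that the widened BCL6 stretch touches. No loop anywhere in the T30 list had fewer than 8 contacts, against 7 in T0. Loops of 7 contacts thus lay below every T30 loop, and the rest of these joins lay close to that lowest count. The only TP63 to P3H2 loop, with 13 contacts in T0, also ended just below the P3H2 body, and was not listed in T30. BCL6 and LPP were joined by 5 loops with 53 contacts in T0 and by 4 with 39 in T30. No loop joined LPP to TPRG1, TP63 or P3H2, or BCL6 to TP63 or P3H2, in either library.

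Each listed loop belongs to a cluster of bin pairs that the authors merged, and a cluster can hold several listed loops. The 53 T0 loops at the 5 genes lay in 49 clusters and the 27 T30 loops in 24. The authors' fraction for each cluster was multiplied by the bin pairs in the cluster's range. The product was a whole number for all 6714 T0 clusters and all 9205 T30 clusters within 1e-06. It is read here as the bin pairs that passed before merging. By that count the 5 genes had 102 bin pairs with 1206 contacts in T0 and 51 with 621 in T30, a ratio of 0.5, where all bin pairs had a ratio of 1.26. A cluster was counted whole when any of its listed loops was at the genes, so some of its bin pairs can lie outside them. Loops and bin pairs thus gave nearly the same ratio at these genes. Contacts per bin pair were 11.8 in T0 and 12.2 in T30 at the 5 genes, and 17.2 and 14.0 over the whole lists.

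The bin pairs show a join between TPRG1 and the lower end of P3H2 in both libraries that the loop counts show less fully. In T0 the largest cluster there joined chr3:189265001-189285000 in TPRG1 to chr3:189925001-189955000, just below P3H2, with 9 bin pairs and 118 contacts. In T30 a cluster joined chr3:189260001-189280000 to chr3:189935001-189960000 with 8 bin pairs and 73 contacts. The 2 clusters overlap at both ends and have nearly equal numbers of bin pairs, with 13.1 contacts per bin pair in T0 and 9.12 in T30. Over the whole join of TPRG1 to P3H2 or the stretch below it, 10 loops and 23 bin pairs were listed in T0 and 3 loops and 9 bin pairs in T30. The strongest T0 loop at the 5 genes was in this join, 189265001 to 189945001, with 31 contacts and the authors' q-value of 5.5e-24. Its T30 counterpart, 189260001 to 189950001, had 10 contacts and a q-value of 0.0015.

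**Figure D2:**
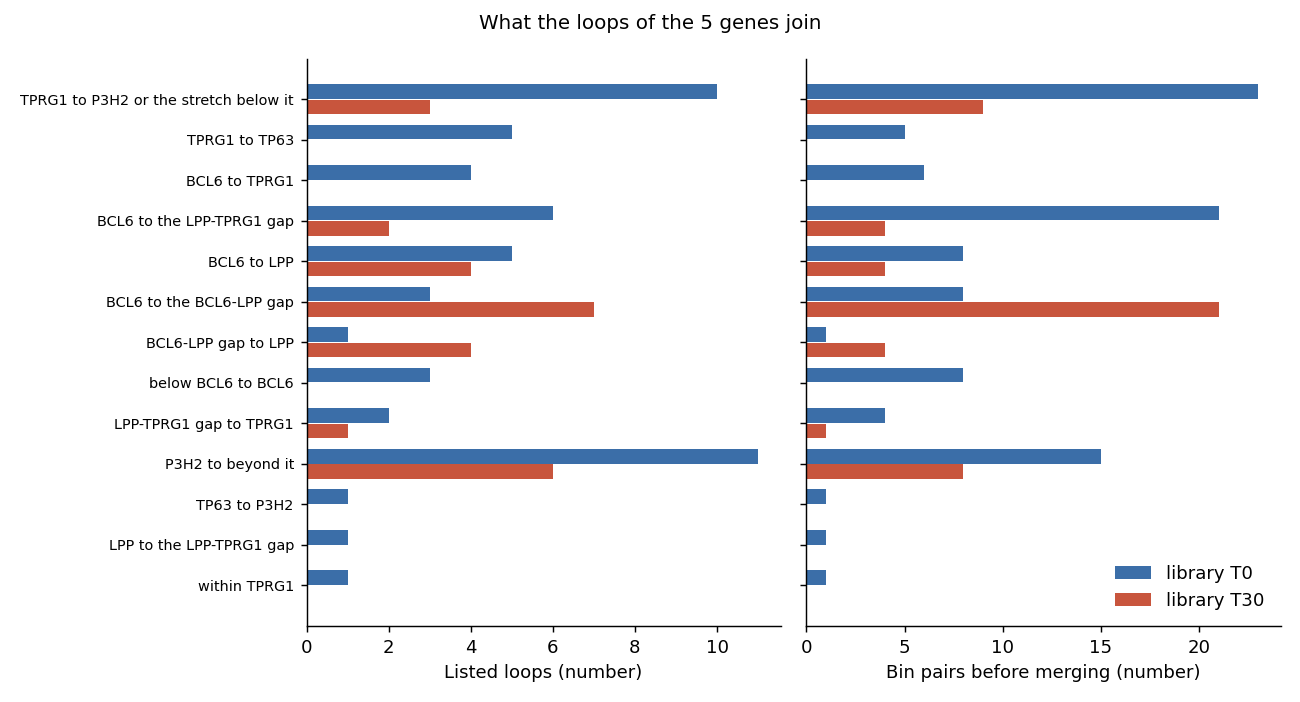
Number of listed loops (left) and of bin pairs before merging (right) for each kind of join at the 5 genes, with T0 in blue and T30 in red and 1 library each. Joins of BCL6 with the stretch between BCL6 and LPP have longer T30 bars (7 loops against 3, 21 bin pairs against 8), and those of TPRG1 and of TP63 have longer T0 bars. Clusters are counted whole, so the 21 can include bin pairs beyond the widened BCL6.

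Only 2 kinds of join had more loops in T30, those of BCL6 and of LPP with the stretch between them. BCL6, the repressor gene at the lower end, was joined to this stretch by a group of near loops. With the stretch between BCL6 and LPP it had 3 loops with 54 contacts in T0 and 7 loops with 111 contacts in T30, and 8 and 21 bin pairs. Of the 21 T30 bin pairs, 14 with 243 contacts lay in a single cluster that joined chr3:187740001-187780000 to chr3:187785001-187815000. Several of the 7 loops share this cluster. Its first range runs past the widened BCL6, which ends at 187755468, so how many of the 14 are at BCL6 cannot be said. The strongest T30 loop at the 5 genes lay in that cluster, from 187740001, in BCL6, to 187795001, with 28 contacts and a q-value of 6.29e-14. The T0 list holds no loop at the bin 187795001, which had 5 partners in T30 and contains a start of LOC105374263. How many read pairs joined these bins in T0 cannot be said, since unlisted pairs have no deposited value. Near loops also met unlike limits. The loop from 187745001 to 187810001 had 23 contacts with the authors' q-value of 0.016 in T0. In T30 it had 19 contacts with a q-value of 1.31e-07. The part of these limits in the longer T30 list of near loops was not tested.

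The opposite held for the far joins of BCL6. With the stretch between LPP and TPRG1 it had 6 loops with 71 contacts, 1185 to 1230 kb long, in T0, and 2 loops with 22 contacts in T30. The bin pairs there numbered 21 in T0 and 4 in T30. The largest T0 cluster at the 5 genes was part of this join, with 15 bin pairs and 189 contacts between chr3:187730001-187755000 and chr3:188935001-188965000. In T30 the cluster at the same place had 3 bin pairs and 26 contacts. On its other side BCL6 had 3 loops with 35 contacts in T0 and none in T30. In 2 of these 3 the near end lay over RTP2, a receptor transporter gene, and 1 of those 2 reached MASP1, a complement protease gene, with 12 contacts.

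LPP was the only one of the 5 genes with as many loops in T30 as in T0 or more. From the stretch between BCL6 and LPP it had 1 loop with 12 contacts in T0 and 4 loops with 41 contacts in T30, of 9 to 11 contacts each. Its start site was among the T30 ends: the bin chr3:188150001-188155000 was joined to 188060001 by 11 contacts (q-value 0.0181), and was in no T0 loop. Inside the gene, the LPP bin at 188275001 had 3 partners in T0 and none in T30, and the bin at 188265001 had 1 partner in T0 and 3 in T30. These bins are near each other, and the loops of BCL6 to them matched in part between the lists. Of the LPP loops, 2 of the 7 in T0 and 2 of the 8 in T30 were listed in both libraries.

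P3H2 was joined mostly away from the other genes, to the stretch beyond it. There it had 11 loops with 138 contacts in T0 and 6 with 66 contacts in T30, and 15 and 8 bin pairs. With CLDN16, a claudin of tight junctions, P3H2 had 5 loops with 56 contacts in T0 and 1 loop with 12 contacts in T30. That T30 loop, 189960001 to 190320001, also reached CLDN1, another claudin, and was listed with 12 contacts in both libraries. A loop to TMEM207, with 11 contacts, was listed in T0 only. In T30, 3 loops of 10 contacts began farther inside P3H2, in the bins at 190010001, 190025001 and 190030001, none of which had a T0 loop. Neither RefSeq start of P3H2 was in a loop bin, and neither was the only TP63 start placed here, at 189631389. That start lies inside the TP63 body, which begins at 189596746, and other TP63 starts were not set beside loop bins.

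Bins with 5 or more partner bins are called hubs here. In T0, 4 of the 36 loop bins at the 5 genes were hubs, and in T30 2 of 20, where 2.44% of 9909 bins in T0 and 2.21% of 13649 bins in T30 were. The genes were chosen for their loops, so nothing is read from that contrast either. Partner bins outside the widened genes are not in these counts, and some were hubs too. Between BCL6 and LPP, the bin at 187795001 had 0 partners in T0 and 5 in T30, and that at 188035001 had 1 and 5. Below BCL6, the bin at 187315001 had 7 and 2. The T0 hub with most partners was the bin chr3:189960001-189965000 at the lower, 3′ end of P3H2, with 11 partners and 140 contacts; in T30 it had 2 partners and 27 contacts. The bin chr3:189945001-189950000, just below P3H2, had 5 partners and 79 contacts in T0 and no listed loop in T30. In T30 loops to TPRG1 were listed at bins near it, 189950001 (10 contacts), 189940001 (10) and 189935001 (9). The range of the T30 cluster there, chr3:189935001-189960000, covers this bin, so its lack of a listed loop can reflect the merging.

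The hubs of BCL6 were listed in both libraries. The bin chr3:187740001-187745000, inside BCL6 and holding the start of BCL6-AS1, had 6 partners and 62 contacts in T0 and 5 partners and 76 contacts in T30. The bin chr3:187745001-187750000, which holds the BCL6 start whose upstream sequence is shown above, had 5 partners in each library, with 70 contacts in T0 and 59 in T30. The bin of the second BCL6 start, at 187736501, had 4 partners and 44 contacts in T0 and 2 partners and 19 contacts in T30. As listed, partner numbers at the BCL6 hubs differed by at most 1, while both P3H2 hubs had 2 partners or fewer in T30. The T0 list reaches to higher p-values than the T30 list, and with both held to the T30 limit neither BCL6 bin was a hub in T0. The bin at 187745001 then had 1 partner in T0 and 5 in T30, and that at 187740001 had 4 and 5. At that limit the P3H2 bin at 189960001 was the only T0 hub at the 5 genes, with 8 partners against 2 in T30, and the bin at 189945001 had 4 and 0. Hubs rest on few loops: with loops of at least 10 contacts alone, 1 hub was left in T0 and 0 in T30.

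**Figure D3:**
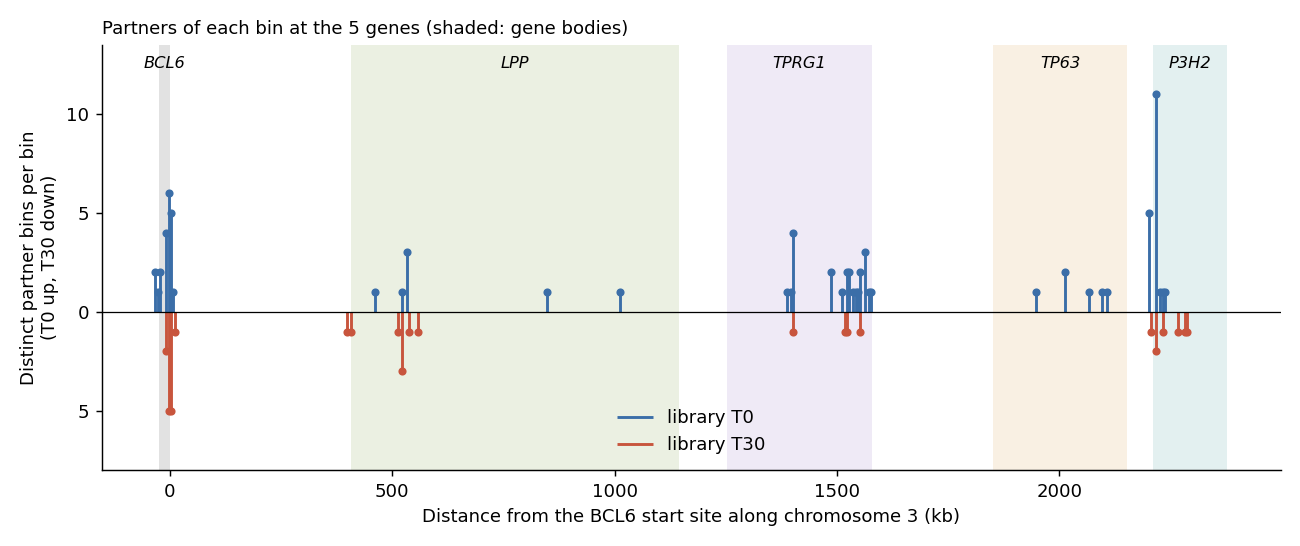
Distinct partner bins of each loop bin at the 5 genes, plotted against distance in kb from the BCL6 start site, with T0 upward and T30 downward and gene bodies shaded. The P3H2 bin with 11 partners in T0 has 2 in T30, while the 2 BCL6 bins with 6 and 5 partners in T0 each have 5 in T30.

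Loops were called listed in both libraries when, at each end, their merged ranges shared 1 bp or more. In T0 this held for 16 of 53 loops, or 30.2% (exact binomial 95% interval 18.3 to 44.3). In T30 it held for 16 of 27, or 59.3% (38.8 to 77.6). Over the whole lists the shares were 22.2% in T0 and 16.4% in T30. Of the BCL6 loops, 9 of 21 in T0 and 10 of 13 in T30 were listed in both, and of the TPRG1 loops 5 of 22 and 4 of 4. The TP63 loops, 6 in T0, had no counterpart. With both lists held to the T30 limit of p, the share for T30 was 40.7%, with 5 of 13 loops at BCL6 and again 4 of 4 at TPRG1.

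Of these loops, 13 could be matched singly, 8 of them with identical bins. The T30 loop had fewer contacts in 10 of the 13, more in 2 and as many in 1, with a median ratio of 0.769. The 608 loops with identical bins in the whole lists had a median ratio of 0.667, with fewer T30 contacts in 518, so fewer contacts in a matched loop were usual in these lists. The BCL6 loop from 187735001 to 188950001 had 20 contacts in T0 and 10 in T30. The loop from 188955001, between LPP and TPRG1, to 189145001 in TPRG1 had 24 and 11. The BCL6 loop from 187745001 to 188045001 had 19 and 10, and the P3H2 loop from 189960001 to 190200001 had 22 and 15. The 2 loops with more T30 contacts were both of BCL6, from 187740001 to 188925001 with 11 and 12, and from 187745001 to 188265001 in LPP with 9 and 11. Differences of 1 or 2 contacts at these counts are within counting error.

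**Figure D4:**
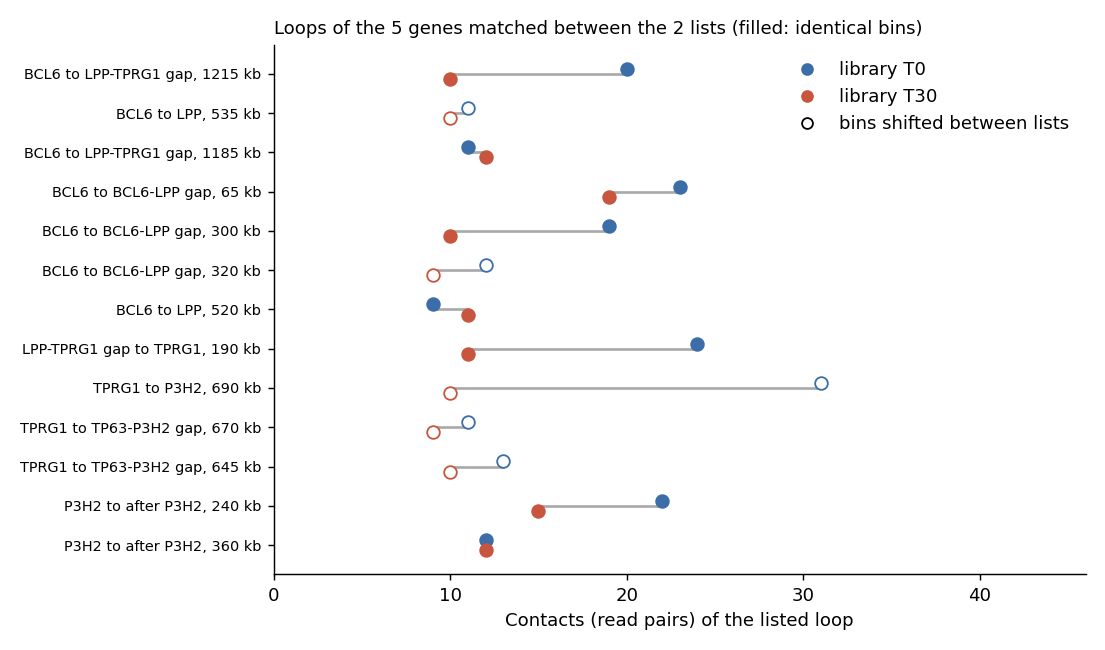
Contacts (read pairs) of the 13 loops matched singly between the lists, with T0 in blue and T30 in red; filled points are loops with identical bins, open points loops whose bins shifted, and labels give the stretches joined and the span in kb in T30. The T30 point is to the left in 10 loops, with the widest distance, 31 against 10 contacts, for TPRG1 to P3H2.

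Contacts and the authors' q-values did not order the libraries alike. The BCL6 loop from 187745001 to 187810001 had 23 contacts with a q-value of 0.016 in T0, and 19 contacts with a q-value of 1.31e-07 in T30. Likewise the P3H2 to CLDN1 loop, with 12 contacts in both, had q-values of 0.00381 and 0.000173. Of the 8 loops with identical bins, 4 had the lower p-value in T30. The q-value limit of 0.05 also met different p-values, with 0.000233 the largest p-value listed in T0 and 2.84e-05 in T30. With both lists held to the T30 limit, a comparison chosen after the data were seen, the 5 genes had 32 loops in T0 and 27 in T30. BCL6 then had 12 and 13, LPP 3 and 8, TPRG1 14 and 4, TP63 4 and 0, and P3H2 13 and 7. At that limit BCL6 had nearly equal counts and LPP more loops in T30, while TPRG1, TP63 and P3H2 had fewer in T30, and the joined pairs were again 5 and 2.

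The loops of the 5 genes were long, and long loops were fewer in T30 over the whole lists. At the 5 genes the median T0 loop spanned 545 kb and the median T30 loop 295 kb, against 190 and 80 kb over all loops. Loops of 500 kb or more numbered 30 in T0 and 9 in T30 at the 5 genes, a ratio of 0.3, and 898 and 305 over the lists, a ratio of 0.34. Those of 1000 kb or more numbered 11 and 2 at the 5 genes, and 155 and 32 over the lists. Loops under 500 kb numbered 23 and 18 at the 5 genes, a ratio of 0.783, and 6177 and 9286 over the lists, a ratio of 1.5. Within that range the directions were alike. Loops of 50 to 200 kb had a ratio of 2.25 at the genes (4 and 9 loops) and 1.75 over the lists. Those of 200 to 500 kb had ratios of 0.421 (19 and 8 loops) and 0.591. Among long loops the 5 genes therefore had a ratio near that of the lists. Span moves with the difference between the libraries, and its part in the result was not tested.

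**Figure D5:**
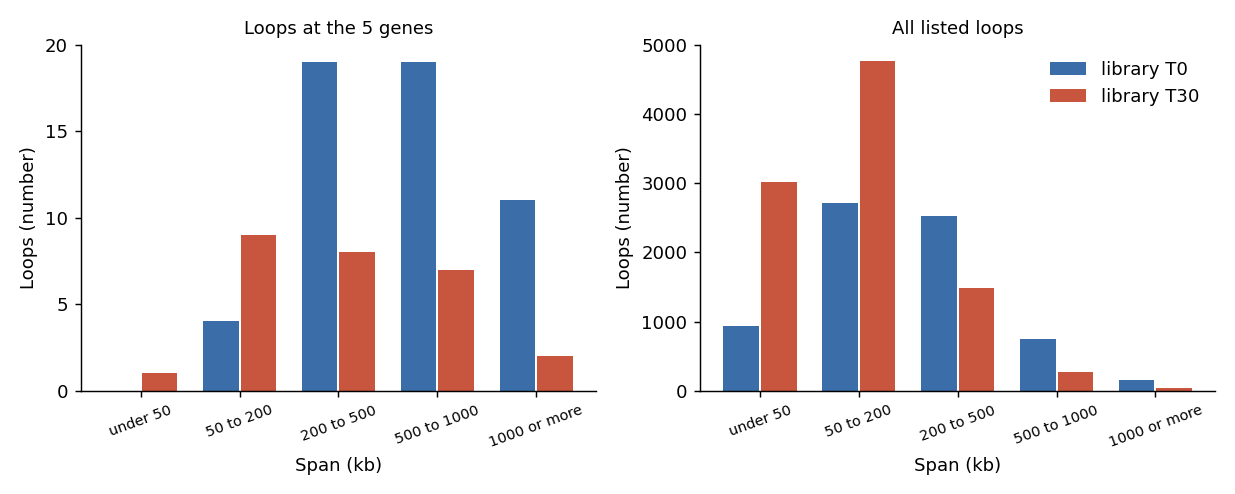
Number of loops by span class in kb at the 5 genes (left) and over the whole lists (right), with T0 in blue and T30 in red and 1 library each. In both panels the T30 bars are taller below 200 kb and the T0 bars are taller from 200 kb upward.

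Genes related to the 5 were taken from a list of which 18 are reported. Of the 18, 4 had a loop in T0, 6 in T30 and 4 in both, near the 27.3% and 32.2% of all protein-coding genes. Among partners and relatives of BCL6, ZBTB16, a repressor of the same zinc finger family, had 7 loops in T0 against 14 in T30. BCOR, the corepressor named for BCL6, had no listed loop in T0 but 7 in T30, and BCL6B, a paralog of BCL6, had 0 and 1. Of the collagen hydroxylase group of P3H2, P3H4 had 5 loops in T0 against 1 in T30, and CRTAP had 4 and 1. WTIP, a LIM protein related to LPP, had 1 and 1. The other 12 had no listed loop in either library.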

How the data were processed

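HiChIP loops were taken from 2 deposited lists, 1 per library; the other samples of the series are not analysed here. Bowtie, hg38 and GRCh38 are named in the submitters' processing notes without a role. Names of the deposited lists read FitHiC, Q0.05 and MergeNearContacts, taken here as the loop caller, the q-value limit and the merging of near contacts. Not given in the sources used here are other tools, settings and version of the loop caller, sequencing depth and whether replicates were pooled. Per the file headers and values, contacts are deposited raw counts: the read pairs that link 2 bins, each of 5 kb. The authors' model, corrected for bias, gave every loop its p-value and q-value, and listed loops pass a q-value of 0.05. The authors' fraction per cluster is that of its bin pairs taken as strong, read from its values.

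Gene bodies and start sites came from RefSeq tables of GRCh38.p14, with all 5 genes found among 19970 protein-coding symbols. Loops at genes, gene pairs, hubs and shared loops were counted as defined in the report, with exact Poisson and binomial intervals at 95%. No test was made, since each condition had 1 library and the genes were chosen on these values. The genes, the related genes and the loops named (the 10 with most contacts per library, loops in both lists and hub bins, of which a part is given) were chosen with earlier results of these data known; 2 of the related genes are not reported here. Alternatives were other widths, limits on q-value, contacts and span, lists of equal length, other overlaps and other hub rules; those held to the T30 limit of p and counting bin pairs were added after the data were seen. Counts of loops joining gene pairs and of shared loops were tested on simulated loops at well-separated genes. Counts of hubs and of bin pairs were not tested in that way. The software was scipy 1.17.1, pandas 2.3.3, numpy 2.4.6 and matplotlib 3.10.9 under Python 3.11.15.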

Additional observations from a re-analysis of the deposited data

How the results depend on the processing

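Fewer loops were listed at the 5 genes in T30 than in T0 under all 7 other settings of width, limit and list length. For 2 of these the outcome was fixed: a span of at least 20 kb removed no loop at the genes, and equal length could only lower the T30 count. The T0 count of 53 loops was 32 at a q-value under 0.01 (18 in T30), 32 at the T30 limit of p (27 in T30) and 102 counted as bin pairs before merging (51 in T30). The 22 T0 loops joining 2 of the genes were 12 with at least 10 contacts, 14 at a q-value under 0.01 and 14 at the T30 limit of p; the 5 T30 loops were 3 with at least 10 contacts and 3 at a q-value under 0.01. With the genes not widened, 4 pairs were joined in T0 and 1 in T30; with at least 10 contacts, 4 and 2, and the T0 chain was lost. The 4 T0 hubs were 2 with a minimum of 6 partners, and 1 each with at least 10 contacts, at a q-value under 0.01 and at the T30 limit of p, where no BCL6 hub was left. The 2 T30 hubs were 1 with adjacent bins merged, and 0 with 6 partners, at least 10 contacts or a q-value under 0.01. With identical bins required, the share listed in both libraries was 15.1% for T0 and 29.6% for T30. The other 37 values stayed within 1.5 times the counts given, or within the interval of the shares. Some of these could not move. The span limit removed no loop at the genes, equal length left T0 as it was, and all T30 loops met their own limit of p. No paired analysis was possible because each condition had 1 library and no result comes from a test. Loops at these genes had few contacts (7 to 31 in T0, 9 to 28 in T30), so an unlisted loop may lie under the limit of its list.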

Other observations

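Protein-coding genes beside the 5 did not all differ in the same direction. ST6GAL1, a sialyltransferase gene, had 3 loops in T0 against 13 in T30. KNG1, the kininogen gene, had 3 and 5. ADIPOQ, the adiponectin gene, had 8 and 3, MASP1 8 and 4, and RTP2, next to BCL6, 6 and 0. SST, the somatostatin gene, had 7 and 6, CLDN16 7 and 5 and CLDN1 2 and 3. Some of these loops are the same as loops counted at the 5 genes. Several T0 loops of RTP2 were also counted at BCL6, since the widened genes overlap. With P3H2, CLDN16 shared 5 loops in T0 and 1 in T30, and CLDN1 1 in each. MASP1 shared 1 T0 loop with the widened BCL6. The bin chr3:187315001-187320000, below BCL6, had 7 partners and 106 contacts in T0 and 2 partners and 27 contacts in T30, and 1 of its T0 loops ended in BCL6. In the 10 kb next to the widened genes, a single loop was outside the counts, above BCL6 in T30 with 14 contacts, while the bin just inside that limit, at 187755001, had 18 contacts in T30 and no T0 loop.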
